A study of Homo sapiens with 5 samples.

Results

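High mobility group (HMG) proteins are small, abundant chromatin proteins, and 9 of their genes, HMGA1, HMGA2, HMGB1, HMGB2, HMGB3, HMGN1, HMGN2, HMGN3 and HMGN4, were taken by gene symbol from the 18568 gene rows analysed. Each symbol had a single row, and all 9 genes were among the 6317 that passed the filter on low values. RNA had been sequenced from IMR90, a line of normal human lung fibroblasts, after infection with a retrovirus for RASV12, an always-active RAS that drives fibroblasts into senescence. Both groups carried RASV12 and were puromycin-selected. The cells were seeded at day 10, transfected 24 hours later with an oligonucleotide that blocks a microRNA (an antagomir), and harvested 24 hours after that. Some cells had received an antagomir against miR-146a (n = 3, libraries A, B and C) and the others a control antagomir (n = 2, libraries B and C). Nothing in the labels says that libraries came from separate cultures, so p-values reflect no more than the variation between libraries, which could be technical. What the letters mark is not stated either.

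HMG proteins form 3 families that differ in how they touch chromatin. HMGA proteins bind the minor groove of AT-rich DNA through short AT-hooks, HMGB proteins bend DNA with HMG boxes, and HMGN proteins bind the nucleosome core itself and compete with linker histone H1. In senescent fibroblasts, HMGA proteins are known to gather in the dense heterochromatin foci of the nucleus, HMGB1 to leave the nucleus and be released as an inflammatory signal, and HMGB2 to hold the genes of secreted factors open.

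Both libraries marked C lay far from the other 3 along the first principal component, which held 53.4% of the variance. The second, with 29.3%, separated the antagomirs. The values of each gene are therefore given below by letter, and each test is given with the antagomir as its only term and with the libraries marked C as a second term. The rows used here held between 8430859 and 9283950 reads per library, which is part of each library and not its depth. The fibroblast genes COL1A1 and FN1 were abundant in each library, at 20882 or more normalized reads. Markers of other cell types were low but not all at 0. The 6 epithelial markers with a row summed to 59.7 to 98.6 normalized reads with anti-miR-146a and 87.7 to 103 in controls. Among them CDH1 had at most 0.944, CLDN4 43.5 to 70.3 and ELF3 6.07 to 21.7 with anti-miR-146a against 22.4 and 35.3 in controls (log2 fold change −1.21 with the C term, Benjamini-Hochberg adjusted p 0.0231 in limma). The 6 endothelial markers summed to 158 to 199 with anti-miR-146a and 171 to 212 in controls, with FLI1 the highest of them (88.0 to 116). The 6 leukocyte markers summed to 14.2 to 29.2 with anti-miR-146a and 23.3 to 26.7 in controls, with CSF1R at 8.40 to 19.1 and CD3E at 0 throughout. Their part in the results was not tested. Values are normalized reads, the read count divided by a size factor that makes libraries comparable. RNA per cell and the make-up of a culture cannot be told apart in such bulk samples.

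The antagomir acts on miR-146a, so its sequence and the matches to it in the HMG transcripts are shown first. Capitals mark the seed (bases 2 to 8) in the microRNA, written 5′ to 3′ from RefSeq (GRCh38.p14), and in the transcripts the bases that can pair with its bases 2 to 7 (in the first HMGA2 match with base 1 too), from the longest 3′ UTR of each gene in GENCODE 29.

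hsa-miR-146a-5p: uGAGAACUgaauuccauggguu

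HMGA2, position 4552 of the 3′ UTR: tgcagtcagcatctcGTTCTCAaag

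HMGA2, position 732: ataagaacgtcctgctGTTCTCttc

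HMGA2, position 976: atcttatatatctactGTTCTCtaa

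HMGB1, position 4284: tgtactcatattcattGTTCTCttt

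HMGB3, position 260: gaaaaggcactctcgtGTTCTCctc

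Among the 9 genes, only HMGA2 held a match of 7 or more bases, at position 4552 of a 3′ UTR of 7421 bases. Of the 4595 tested protein-coding genes with a 3′ UTR, 20.2% held such a match, and their median 3′ UTR was 1282 bases long. Its other 2 matches, and the single ones in HMGB1 and HMGB3, had 6 bases, a kind that was counted in 33.2% of genes together with the longer matches. HMGA1, HMGB2, HMGN1, HMGN2, HMGN3 and HMGN4 had no match in the 3′ UTR searched. A match of letters is a description and not a site shown to be used.

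**Figure D1:**
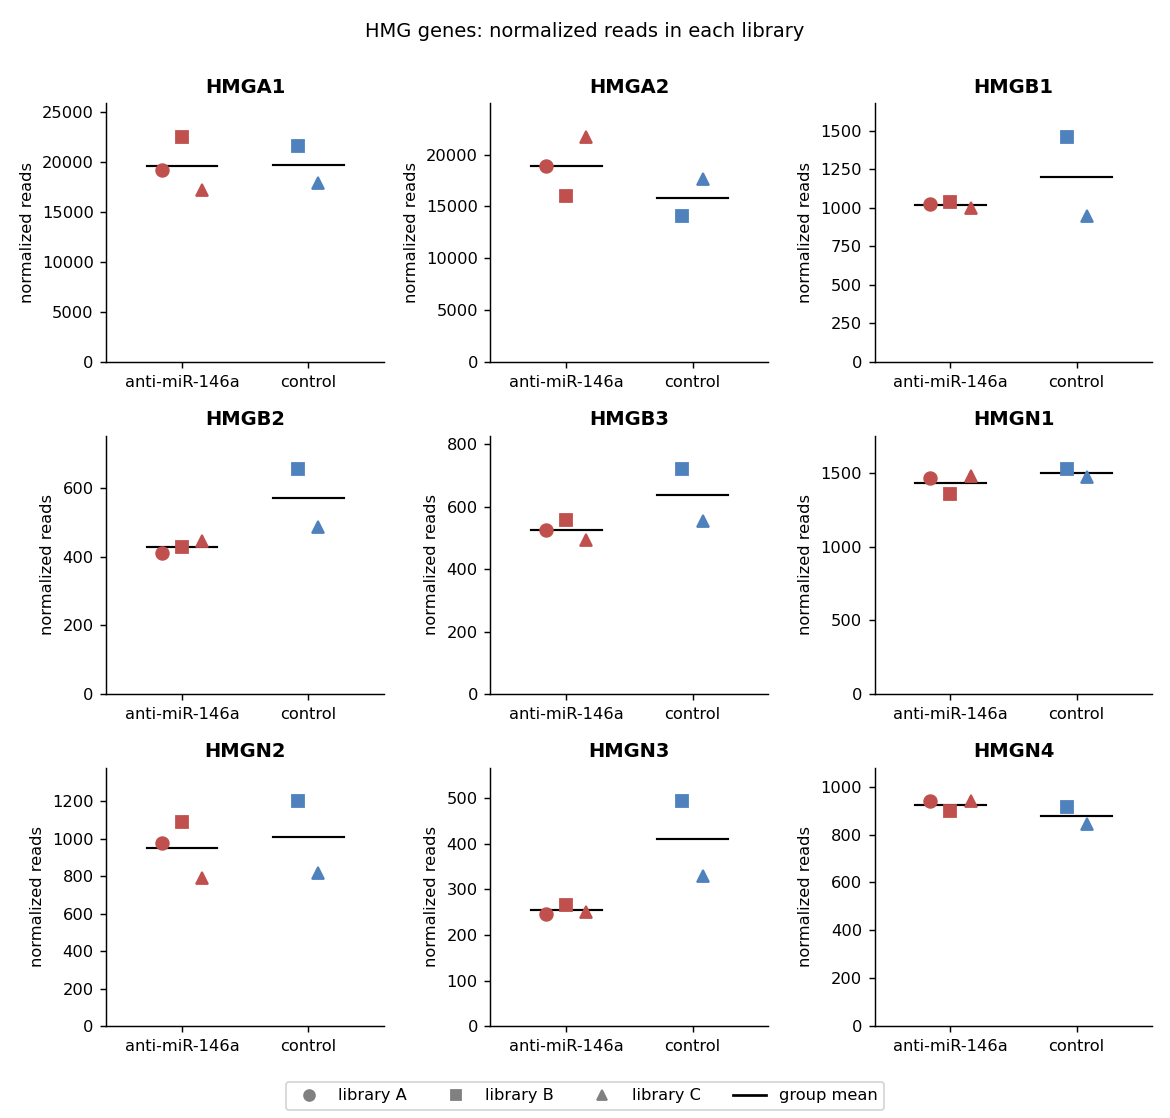
Normalized reads (vertical axes, from 0) of the 9 HMG genes in each library, with anti-miR-146a libraries in red on the left and control libraries in blue on the right. Symbols mark the library letter and black lines the group means. HMGN3 and HMGB2 are the genes whose anti-miR-146a libraries all lie below both controls, and control B is the highest library for HMGB1, HMGB2, HMGB3, HMGN1, HMGN2 and HMGN3.

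HMGN3 showed the widest gap between the antagomirs, HMGB2 and HMGB3 lay lower and HMGA2 higher with anti-miR-146a, and HMGA1, HMGN1, HMGN2 and HMGN4 had log2 fold changes from −0.07 to 0.07. With the antagomir as the only term, none of the 9 genes passed in limma at an adjusted p (Benjamini-Hochberg) under 0.05, as none (0%) of the 6317 genes did. At an unadjusted p under 0.05 there were 2, HMGN3 and HMGB2, beside 11.3% of all genes. On the recovered reads, edgeR called none of the 9 and DESeq2 none, beside 0.749% of genes that DESeq2 called. With the libraries marked C as a term, limma called 3 of the 9 as lower, HMGN3, HMGB2 and HMGB3, beside 6.79% of all genes, and 1 as higher, HMGA2, beside 8.64%. In that model HMGN3 alone passed without anti-miR-146a A, beside 633 of all 6317 genes in either direction. HMGN3 and HMGA2 passed without anti-miR-146a B, beside 619 of all 6317. Without control B, 1 control is left, and the C-term model then compares anti-miR-146a C with control C alone. Its log2 fold changes were −0.40 for HMGN3 (−0.71 with all libraries), −0.13 for HMGB2 (−0.42), −0.17 for HMGB3 (−0.31) and 0.30 for HMGA2 (0.30). The calls of all these genes were lost in that fit. Without both libraries marked C, which leaves 1 control, 4 were called as lower, the same 3 and HMGB1, beside 12.7% of all genes, and 1 as higher, HMGA2, beside 11.9%. The median log2 fold change of the 9 was −0.07 with the antagomir alone and −0.15 with the C term, against 0.005 and 0.008 over all tested genes. The anti-miR-146a libraries lay below both controls for 2 of the 9 genes, beside 13.5% of all tested genes, and above both for 0, beside 16.5%.

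**Figure D2:**
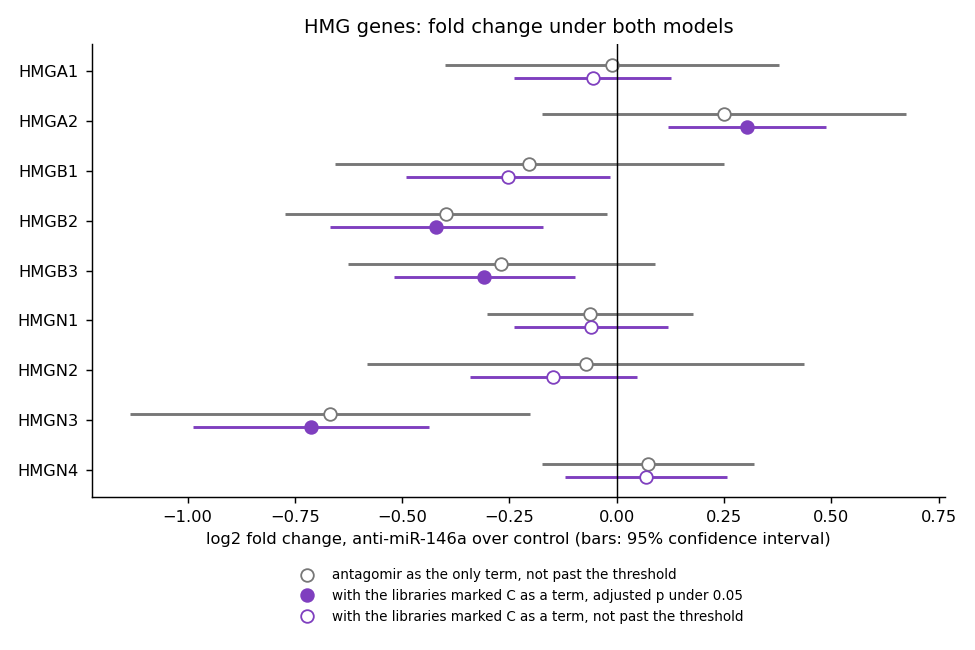
Log2 fold change of anti-miR-146a over control for the 9 HMG genes (horizontal axis), with 95% confidence intervals from limma as bars. Grey is the model with the antagomir alone, in which no gene passed, and purple the model with the libraries marked C as a term, in which the filled circles of HMGA2, HMGB2, HMGB3 and HMGN3 passed at an adjusted p under 0.05.

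The HMGN family loosens chromatin by binding between nucleosomal DNA and histones, and HMGN3 (ENSG00000118418.14, chromosome 6, 79201245 to 79234738, minus strand, GRCh38) is its member first found as a partner of the thyroid hormone receptor. It had 245, 267 and 250 normalized reads with anti-miR-146a (A, B, C), against 493 and 330 in controls B and C. All 3 anti-miR-146a libraries lay below both controls and close to each other, while the controls were far apart. The means were 254 ± 11.1 (SD, n = 3) with anti-miR-146a and 412 ± 115 (SD, n = 2) in controls, a ratio of 0.617. The log2 fold change was −0.67 (SE 0.19, 95% interval −1.13 to −0.20), with an adjusted p of 0.354 in limma.

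Once the C libraries were a term, the log2 fold change of HMGN3 was −0.71 (SE 0.13, interval −0.99 to −0.44) and the adjusted p 0.00303 in limma. With that term edgeR gave an adjusted p of 0.00227 and DESeq2 one of 0.00162. Anti-miR-146a over control was 0.540 between the libraries marked B and 0.757 between those marked C. The size of the difference rested on control B. Without it the log2 fold change with the C term was −0.40, and the call was lost. That fit compares anti-miR-146a C with control C alone, the pair with the ratio of 0.757. With control C left out instead, the log2 fold change was −0.95. In both of these fits of the C-term model 1 control was left, which is assumed to vary like the other libraries. Leaving out anti-miR-146a A or B in turn kept HMGN3 past the threshold in that model. Without anti-miR-146a C the term takes up control C, so that fit compares with control B alone. Its log2 fold change was again −0.95. In the authors' deposited table HMGN3 has a fold change of 0.617 and an adjusted p of 0.00693, and it is the only one of the 9 genes under 0.05 there, beside 2.57% of the 5593 rows with such a value. HMGN3 also had the fewest reads of the 9, between 247 and 517 per library.

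The 5′ end of HMGN3 lies inside the bounds of HMGN3-AS1 (chromosome 6, 79233718 to 79236797, plus strand), an antisense gene that overlaps 1021 bases of HMGN3, or 3.05% of its span. HMGN3-AS1 had 71.7, 81.2 and 81.9 normalized reads with anti-miR-146a (A, B, C), against 84.9 and 73.7 in controls B and C. The groups overlapped, with a log2 fold change of −0.02 (SE 0.19, interval −0.47 to 0.43), so that the antisense row did not share the gap seen for HMGN3. Reads of the 2 genes where they overlap cannot be told apart, since no source used here says whether counting was by strand. The RefSeq promoter window of HMGN3 is shown because the antisense gene starts inside HMGN3 and runs across the whole of this window. The window spans chr6:79234633-79234932 (GRCh38.p14) and is read on the minus strand, with the motif CCAAT, on either strand, in capitals.

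HMGN3: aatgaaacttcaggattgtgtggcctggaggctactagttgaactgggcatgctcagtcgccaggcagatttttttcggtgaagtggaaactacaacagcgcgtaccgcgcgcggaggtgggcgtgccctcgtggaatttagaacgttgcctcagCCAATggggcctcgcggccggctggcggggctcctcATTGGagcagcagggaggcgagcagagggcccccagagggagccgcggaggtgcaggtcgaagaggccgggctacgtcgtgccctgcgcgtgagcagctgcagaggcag

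The window held CCAAT 2 times (once as ATTGG) and no GGGCGG or TATAAA on either strand, and its GC content was 63.3%. Over all 35116 RefSeq promoter windows of this kind, 34.6% held CCAAT, 45.0% GGGCGG and 11.5% TATAAA. None of these letters overlap another motif here, and a match of letters does not show that a factor binds.

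The groups overlapped for HMGN1, HMGN2 and HMGN4. HMGN1 (chromosome 21, 39342315 to 39349647), which loosens the hold of histone H1 on nucleosomes, had 1469, 1358 and 1478 normalized reads with anti-miR-146a (A, B, C), against 1525 and 1469 in controls B and C. It was among the steadiest of the 9 genes, with a highest library 1.12 times the lowest and a log2 fold change of −0.06 (interval −0.30 to 0.18). HMGN4 (chromosome 6, 26538405 to 26546254), a gene that arose as a retrocopy of HMGN2, had 938, 896 and 939 against 915 and 843, a log2 fold change of 0.07 (interval −0.17 to 0.32). These intervals leave room for differences of modest size in either direction.

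HMGN2 (chromosome 1, 26472450 to 26475972) had 975, 1089 and 789 normalized reads with anti-miR-146a (A, B, C), against 1199.8 and 818 in controls B and C. Both C libraries lay below the other 3, and the groups overlapped. Its log2 fold change was −0.07 (interval −0.58 to 0.44), and with the C term −0.15 (interval −0.34 to 0.05, adjusted p 0.298 in limma). HMGN2 and HMGN4 are near-identical over much of their coding sequence, so the split of reads between them is uncertain.

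HMGB2 is an HMG-box protein of dividing cells that is known to decline as fibroblasts become senescent (chromosome 4, 173331695 to 173335125). It had 412, 429 and 446 normalized reads with anti-miR-146a (A, B, C), against 655 and 488 in controls B and C. All 3 anti-miR-146a libraries lay below both controls, and control B stood above the rest. The means were 429 ± 17.2 (SD, n = 3) with anti-miR-146a and 571 ± 118 (SD, n = 2) in controls, with a log2 fold change of −0.40 (SE 0.16, interval −0.77 to −0.02, adjusted p 0.419 in limma).

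For HMGB2 the log2 fold change with the C term was −0.42 (SE 0.12), with an adjusted p of 0.0256 in limma, 0.0185 in edgeR and 0.0467 in DESeq2. Anti-miR-146a over control was 0.655 between the B libraries and 0.914 between the C libraries. In the C-term model the call was lost without control B (log2 fold change −0.13, adjusted p 0.740), without anti-miR-146a A (−0.37, adjusted p 0.0752) and without anti-miR-146a B (−0.40, adjusted p 0.0544).

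HMGB3 (chromosome X, 150980509 to 150990775), the HMGB family member of stem and progenitor cells, had 525, 555.8 and 494 normalized reads with anti-miR-146a (A, B, C), against 720 and 555.1 in controls B and C. Anti-miR-146a B and control C were level, so the groups met, and control B was again highest. The log2 fold change was −0.27 (SE 0.15, interval −0.63 to 0.09, adjusted p 0.534 in limma). With the C term it was −0.31 (SE 0.10), close to the threshold, with an adjusted p of 0.0483 in limma, 0.0328 in edgeR and 0.106 in DESeq2. In that model it did not pass without control B (log2 fold change −0.17, adjusted p 0.597), anti-miR-146a A (−0.27, adjusted p 0.222) or anti-miR-146a B (−0.31, adjusted p 0.0910).

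HMGB1 (chromosome 13, 30456704 to 30617597), the best known of the family as an extracellular alarm signal, had 1025, 1034 and 997 normalized reads with anti-miR-146a (A, B, C), against 1457.5 and 945 in controls B and C. The anti-miR-146a libraries lay between the controls. Its log2 fold change was −0.20 (SE 0.19, interval −0.66 to 0.25), and with the C term −0.25 (SE 0.11, adjusted p 0.142 in limma). The direction turned without control B, to 0.11 with the antagomir alone and 0.08 with the C term. The ratio of anti-miR-146a to control was 0.710 between the B libraries and 1.06 between the C libraries.

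HMGA2 (chromosome 12, 65824131 to 65966295) is a fetal chromatin protein that the microRNA let-7 is known to repress. It had 18923, 15974 and 21679 normalized reads with anti-miR-146a (A, B, C), against 14039 and 17641 in controls B and C. The highest libraries were anti-miR-146a C and A, and anti-miR-146a B lay between the controls. The means were 18858 ± 2853 (SD, n = 3) with anti-miR-146a and 15840.0 ± 2548 (SD, n = 2) in controls, a ratio of 1.19, with a log2 fold change of 0.25 (SE 0.18, interval −0.18 to 0.67, adjusted p 0.633 in limma).

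Within letters HMGA2 was higher, at 1.14 times the control between the B libraries and 1.23 times between the C libraries. The C-term log2 fold change was 0.30 (SE 0.09), with an adjusted p of 0.0287 in limma, 0.0367 in edgeR and 0.0495 in DESeq2. It did not pass in that model without control B (0.30, adjusted p 0.0813) or without anti-miR-146a A (0.24, adjusted p 0.190). HMGA2 is also the gene of the 9 that held the longest seed match, and its part in the result was not tested. Antisense genes of GENCODE 29 that are not analysed here also overlap HMGA2 and HMGB1, so their reads carry the same doubt about strand as those of HMGN3.

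HMGA1 (chromosome 6, 34236873 to 34246231), the other AT-hook gene, had 19177, 22497 and 17229 normalized reads with anti-miR-146a (A, B, C), against 21611 and 17891 in controls B and C. Both C libraries lay below the other 3, and the antagomir groups overlapped. The log2 fold change was −0.01 (interval −0.40 to 0.38), and with the C term −0.06 (interval −0.24 to 0.13). HMGA2 moved the other way with the letter. Per kilobase of all annotated exons, the ratio of HMGA2 to HMGA1 was 0.149, 0.107 and 0.190 with anti-miR-146a (A, B, C) and 0.0981 and 0.149 in controls (B, C). The level of this ratio depends on the length used. Mean normalized reads of HMGA2 and HMGA1 were 1146 and 8458 per kilobase of all exons, and 2181 and 9116 per kilobase of the longest coding transcript.

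Both C libraries lay below the other 3 for 3 of the 9 genes, HMGA1, HMGB1 and HMGN2, beside 20.3% of all tested genes, and above them for 0, beside 24.3%. HMGN2 had the lowest ratio of the C libraries to the rest, 0.739, and HMGA2 the highest, 1.21. In the controls, C over B was 0.648 for HMGB1, 0.669 for HMGN3, 0.682 for HMGN2, 0.745 for HMGB2 and 0.771 for HMGB3. In the anti-miR-146a libraries, C over the mean of A and B was 0.969, 0.976, 0.764, 1.06 and 0.913 for the same genes in that order. The difference between letters was thus of similar size in both groups for HMGN2, while for HMGB1, HMGN3 and HMGB2 it was present between the controls and close to none among the anti-miR-146a libraries. This contrast was not tested, since each of these control values is 1 library.

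**Figure D3:**
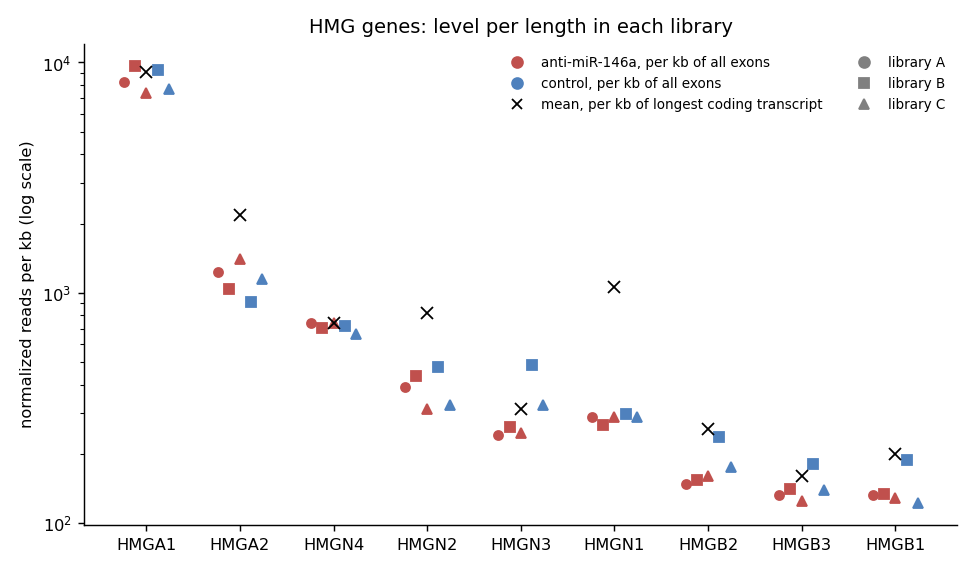
Normalized reads per kilobase (log scale) of the 9 HMG genes in each library, in falling order of the mean per kilobase of all annotated exons. Red is anti-miR-146a and blue control, symbols mark the letter, and crosses give the mean per kilobase of the longest coding transcript, which lifts HMGN1 from 286 to 1056.

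Per kilobase of all annotated exons, HMGA1 was by far the most abundant, with a mean over the 5 libraries of 8458 normalized reads per kilobase, higher than 99.7% of tested protein-coding genes. HMGA2 followed with 1146 and HMGN4 with 711, and neither range over the libraries met that of the next gene. HMGN2, HMGN3 and HMGN1 had 388, 313 and 286, where neighbouring ranges overlapped. HMGB2, HMGB3 and HMGB1 had 175, 144 and 141, again with overlapping ranges, although HMGB2 was above HMGB3 in all 5 libraries. The order below HMGA2 depended on the length used. Per kilobase of the longest coding transcript, HMGN1 with 1056 came next after HMGA2, ahead of HMGN2 with 818 and HMGN4 with 740, and HMGB1 with 199 came ahead of HMGB3 with 160.

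Processed pseudogenes of these genes can take reads from them, and 91 such rows were present, of which 19 were at 0 in all libraries and 7 passed the filter. Their sum was at most 0.195% of the parent gene for HMGA1, 2.10% for HMGN1, 5.53% for HMGB3 and 6.54% for HMGN2, and it was highest for HMGB1, at 7.33% to 10.5%. None of the 7 tested pseudogene rows (HMGA1P2, HMGA1P8, HMGB1P21, HMGB1P5, HMGB3P9, HMGN2P46 and HMGN2P5) passed in either model. HMGB3P9 had 7.55, 12.8 and 7.08 normalized reads with anti-miR-146a, against 15.3 and 17.7 in controls. The most abundant for HMGB1, HMGB1P21, had 43.4, 43.8 and 38.4 normalized reads with anti-miR-146a (A, B, C), against 34.4 and 38.2 in controls. For HMGN3 and HMGB2 the pseudogene rows held at most 2.02 normalized reads in any library.

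Of the 5159 other tested protein-coding genes, the 3 whose profile over the 5 libraries was closest to that of HMGN3 were CEP152, a centriole assembly protein, FAM76B and the phosphatase DUSP12. Their root mean square distances on the centred log2 scale were 0.079, 0.082 and 0.083. CEP152 had 247, 271 and 274 normalized reads with anti-miR-146a (A, B, C), against 460 and 318 in controls B and C. For HMGB2 the closest were the mitochondrial transporter ABCB10 and DNAJC27, at 0.037 and 0.042. ABCB10 had 189, 192 and 190 against 290 and 222. As for HMGB2, control B was highest and control C next, which the choice by closeness favours.

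**Figure D4:**
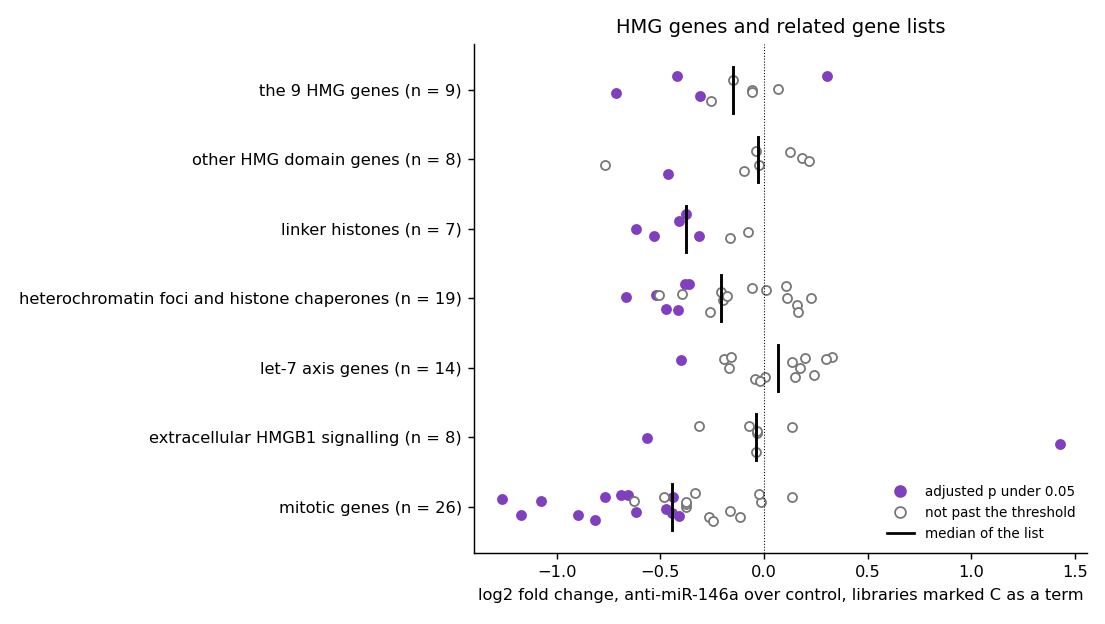
Log2 fold change of anti-miR-146a over control with the libraries marked C as a term (horizontal axis) for the 9 HMG genes and the tested members of 6 related lists. Filled purple circles passed at an adjusted p under 0.05, open ones did not, and black lines are list medians. Linker histones and mitotic genes have the lowest medians, −0.38 and −0.44.

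Linker histones and the listed genes of heterochromatin foci and histone chaperones lay mostly to the lower side with the antagomir alone. No gene of any list passed in limma in that model. Linker histones, which HMGN proteins displace, were lower for 7 of 7 tested genes, with a median log2 fold change of −0.21, against 0.005 over all tested genes, of which 3101 were lower and 3216 higher. In the C-term model 5 of 7 fell and 0 rose, beside 6.79% and 8.64% of all tested genes. The calls other than that of HIST1H1B were lost without control B, which leaves 1 control. HIST1H1D had 444, 436 and 258 normalized reads with anti-miR-146a (A, B, C), against 751 and 342 in controls B and C (C-term log2 fold change −0.61, adjusted p 0.00266 in limma), and H1F0, the H1 variant of non-dividing cells, had 3673, 3838 and 4046 against 4267 and 3853 (−0.08, adjusted p 0.577). HIST1H1A had 165, 145 and 94.1 against 234 and 129, and HIST1H1C had 2766, 2990.1 and 1888.5 against 3731 and 2210.1. In both, the C library was the lowest of its group. The summed linker histone level was 9790 to 13288 with anti-miR-146a and 10714 to 16333 in controls. Reads among the HIST1H1 genes are uncertain because these are close copies.

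Of 19 tested genes of heterochromatin foci and histone chaperones, 13 were lower and 6 higher with the antagomir alone (median −0.18). In the C-term model 6 fell and 0 rose, ASF1A, ATRX, CBX1, CBX3, CHAF1A and DEK, beside 6.79% and 8.64% of all tested genes. The calls other than that of CHAF1A were lost without control B, and that of CHAF1A without control C, each of which leaves 1 control. Without anti-miR-146a B there were 4, ATRX, CBX1, CHAF1A and DEK, beside 619 of all 6317 tested genes in either direction. Without either C library the fit compares with control B alone, and there the list also held genes called as higher. CBX1, a heterochromatin protein that reads methylated histone H3, had 1003, 1004 and 1061 normalized reads with anti-miR-146a (A, B, C), against 1565 and 1258.5 in controls B and C. ASF1A, a histone chaperone known for its need in forming senescence foci, had 423, 383 and 404 against 542 and 486. Both genes had been picked for a small p. Their groups did not overlap, and 13.5% of all tested genes likewise lay below both controls. The most abundant of the list, the histone variant gene H3F3B and the heterochromatin gene CBX5, did not pass.

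HMGB2 belongs to cells that divide, and mitotic genes were lower beside it. Of 26 tested, 22 were lower with the antagomir alone (median −0.42), beside 3101 of all 6317 tested genes. With the C term 13 fell and 0 rose, beside 6.79% and 8.64% of all tested genes. Without control B there were 4 (CCNA2, CENPF, DLGAP5 and HMMR), beside 331 of all 6317 in either direction. HMMR, a spindle protein, had 122, 129 and 110 normalized reads with anti-miR-146a (A, B, C), against 316 and 184 in controls B and C, a C-term log2 fold change of −1.07. CENPF, a kinetochore protein, had 618, 525 and 1053 against 2091 and 1435, and ECT2, which drives the cleavage furrow, had 936, 827 and 1005 against 1324 and 1188. All anti-miR-146a libraries lay below both controls for these 3 genes, as for 13.5% of all tested genes. HMMR and CENPF had been picked for a small p, so this is no separate support. The summed mitotic level was 7034 to 8243 with anti-miR-146a and 8742 to 12979 in controls. Its part in the values of HMGB2, HMGB3 and HMGN3 was not tested.

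With the C term 1 of 8 other HMG-domain and HMGN genes, 1 of 14 let-7 axis genes and 2 of 8 genes of extracellular HMGB1 signalling passed, beside 6.79% of all tested genes lower and 8.64% higher. Of 8 other HMG genes tested, 4 were lower and 4 higher (median −0.01), and the HMG-box factor BBX fell in the C-term model, a call lost without control B. BBX had 1381, 1231 and 1509 normalized reads with anti-miR-146a (A, B, C), against 2194 and 1596 in controls B and C. HMGN5, the long-tailed HMGN protein, had 18.9, 25.6 and 37.4 against 45.8 and 50.4, with an adjusted p of 0.0541 with the C term in limma. BBX and HMGN5 had been picked for a small p. Their groups did not overlap, and 13.5% of all tested genes likewise lay below both controls. HBP1, an HMG-box repressor, had 4242, 4435 and 3395 against 4071 and 2755 and did not pass. HMGXB3, an HMG-box gene, had 4141, 4205 and 4016 against 3248 and 3931 (adjusted p 0.0992 in limma with that term).

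In the let-7 axis, 7 of 14 tested genes were higher and 7 lower (median 0.03), and CDC25A alone fell with the C term, with 218, 211 and 203 against 278 and 275, a call lost when any 1 of the libraries was left out. IGF2BP1, a fetal RNA-binding protein that let-7 represses as it does HMGA2, had 4181, 4187 and 3288 against 3584 and 3175, and it did not pass. ARID3B (205, 203 and 198 against 157 and 163) and the cyclin gene CCND2 (2506, 2171 and 4718 against 2035 and 4281) did not pass either. Of 8 tested genes of extracellular HMGB1 signalling, 7 were lower and 1 higher with the antagomir alone (median −0.19), and with the C term the median was −0.04. The most abundant, the cytokine gene IL1B and the adhesion gene ICAM1, were highest in the C libraries. IL1B had 25497, 21335 and 54881 normalized reads with anti-miR-146a (A, B, C), against 21508 and 48997 in controls B and C, a log2 fold change of −0.07 that turned to 0.14 with the C term. ICAM1 had 2351, 2682 and 5191 against 2527 and 5439 (−0.21, and −0.03 with that term). In the C-term model CXCR4, the receptor through which HMGB1 bound to CXCL12 attracts cells, rose with each library left out in turn, and CXCL12 fell, except without either C library. CXCR4 had 73.6, 86.7 and 107 normalized reads with anti-miR-146a (A, B, C), against 27.7 and 42.0 in controls B and C. Its C-term log2 fold change was 1.43 (SE 0.19, adjusted p 0.000385 in limma). CXCR4 had been picked from its list for a small p, so these values are no separate support.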

How the data were processed

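RNA depleted of ribosomal RNA was sequenced in 5 libraries (KAPA RNA HyperPrep with RiboErase, per the labels' protocols). The submitters' processing notes name Trimmomatic 0.35, STAR 2.5.1b, DESeq2 1.22.2 and GRCh38. No source used here names the counter, its strand setting or the annotation. The deposited signal is the read count divided by a size factor, and the authors' fold (a linear ratio), p-value and adjusted p-value come from the deposited table. All deposited values (100%) were whole multiples of their column's smallest step within 1e-06, so reads were recovered. Column names gave the group and a letter, which matched no GEO replicate number.

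The main test was limma 3.58.1 (R 4.3.3, trend) on log2(value + 1), which understates changes of low genes, for genes with at least 10 in at least 2 libraries. Benjamini-Hochberg adjustment ran over all 6317. edgeR 4.0.16 and DESeq2 1.42.0 on recovered reads, other pseudocounts (0.1, 5), filters (none, 50), terms and left-out libraries were alternatives. Each kind of fit was checked on simulated counts. These held no difference between letters, so the C term was not checked in the presence of one. Lengths, bounds and 3′ UTRs are from GENCODE 29, whose positions matched 17390 of 17390 rows with the same versioned ID. Promoters and the microRNA are from RefSeq. The members, lists and alternatives were chosen with earlier results of these data known. Named were all members, HMG pseudogenes that passed the filter, per list the 2 most abundant genes, the 2 with the smallest p and any that passed, and for the 2 members with the widest range the 3 closest profiles, of which 1 is not reported here. Exceptions, named after their values were seen, are HIST1H1B, ATRX, CBX3, CHAF1A, DEK, CCNA2, DLGAP5, CXCL12 and the markers COL1A1, FN1, CDH1, CLDN4, ELF3, FLI1, CSF1R and CD3E.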

Additional observations from a re-analysis of the deposited data

How the results depend on the processing

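With the antagomir alone, limma called no gene under either other pseudocount or filter, and edgeR none under either scaling, while DESeq2 called 46. Leaving out 1 library in turn gave 0 to 12 genes. With the C libraries as a term 975 genes passed in limma, 956 in edgeR and 455 in DESeq2, and without both C libraries 1555. The edgeR and DESeq2 forms of the C-term model, and its left-out libraries, were added after seeing the data. In the C-term model, leaving out control B gave 331 genes, control C 1560, anti-miR-146a A 633, anti-miR-146a B 619 and anti-miR-146a C 1555.

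The column letter as a replicate block gave 636 genes, and it called HMGN3 (−0.64) and turned HMGA1 (0.0018). Deviations from the group mean correlated between libraries sharing a letter (r across genes 0.505 for B and 0.661 for C). With 2 controls the deviation of control B is minus that of control C, so the 2 values are not separate observations. With 2 pairs and no label on what a letter marks, the libraries were not treated as paired. The block called no other of the 9.

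Among the 9 genes, C-term log2 fold changes in limma, edgeR and DESeq2 were 0.30, 0.29 and 0.28 for HMGA2, −0.42, −0.45 and −0.45 for HMGB2 and −0.71, −0.75 and −0.75 for HMGN3, all called. HMGB3 was called in limma (−0.31) and edgeR (−0.33). Without both C libraries, HMGA2 (0.31), HMGB1 (−0.50), HMGB2 (−0.64), HMGB3 (−0.41) and HMGN3 (−0.95) were called, and the same values came from the C-term model without either C library. That model also called HMGA2 without anti-miR-146a B (0.36) and HMGN3 without anti-miR-146a A (−0.64) or B (−0.70). Over all libraries left out in turn, in both models, log2 fold changes ran from −0.15 to 0.13 for HMGA1, 0.09 to 0.41 for HMGA2, −0.52 to 0.11 for HMGB1, −0.64 to −0.13 for HMGB2, −0.46 to −0.08 for HMGB3, −0.11 to 0.0083 for HMGN1, −0.35 to 0.20 for HMGN2, −0.96 to −0.38 for HMGN3 and 0.003 to 0.15 for HMGN4. HMGB1 turned without control B (0.11, and 0.078 with the C term). HMGN2 turned without control B (0.20) or anti-miR-146a C (0.06), and HMGA1 without control B (0.13), anti-miR-146a C (0.08) or anti-miR-146a A (0.0018, in both models). HMGN1 turned in the C-term model without control B. The cause was not tested. There were only 2 controls.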
